A study of Homo sapiens with 2 samples.

Results

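The 10 E3 ubiquitin ligase genes described here in KASUMI-1 cells are STUB1, SIAH1, SIAH2, CBL, CBLB, ITCH, WWP1, NEDD4L, SMURF1 and SMURF2. They were chosen by name, as ligases linked to RUNX proteins, to the turnover of fusion proteins or to receptor kinases. Earlier results of these data were known when they were chosen. They make up 10 of the 50464 gene symbols in the deposited table. KASUMI-1 is an established human line of acute myeloid leukaemia with the RUNX1-RUNX1T1 fusion gene. One culture received a lentivirus named pccl, here the control, and the other a lentivirus named for the deubiquitinase USP6. Strandedness, RNA selection and any selection of infected cells are not given in the sources used here. Each group was 1 RNA sequencing library of this single line, so the differences rest on 2 libraries without a replicate check, and no test was made. The study concerns the stabilisation of RUNX1 fusion proteins by USP6, and the comparison asks which ligase messages differed between the libraries.

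E3 ligases choose the proteins that receive ubiquitin, and deubiquitinases such as USP6 take ubiquitin off again. RING and U-box ligases bring a loaded E2 enzyme to the substrate, whereas HECT ligases first take the ubiquitin onto a cysteine of their own. CBL proteins act on activated receptor kinases such as KIT and FLT3, SIAH proteins on many short-lived regulators, STUB1 on clients of HSP70 and HSP90, and NEDD4-family HECT ligases on proteins with PY motifs, RUNX and SMAD proteins among them. All of this happens to proteins, and the values here are messages.

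The pccl library held 12306442 counts and the USP6 library 12518795, of which 49.9% and 45.6% came from the mitochondrial genome. The annotated USP6 gene had 8 and 70 counts, 0.0396 and 0.340 FPKM (fragments scaled to gene length and to the library's count total). It was higher in the library named for it but under 1 FPKM, the limit for expression used below, in both libraries. All 9 myeloid markers were expressed, with summed levels of 283 and 438 FPKM in the pccl and USP6 libraries. They went both ways, with SPI1, MPO, CEBPA and CD33 higher and KIT, CD34, ELANE, AZU1 and PTPRC lower in FPKM in the USP6 library. Of the markers of other cells, 3 of 7 for T and natural killer cells were expressed (summed 29.4 and 31.1 FPKM), 3 of 5 for B cells (4.06 and 13.9), 1 of 5 for erythroid cells (0.467 and 1.61), 2 of 5 for megakaryocytes (20.0 and 37.1) and 1 of 6 for stromal and epithelial cells (17.4 and 8.80). The megakaryocyte sum was mainly GP1BB (19.8 and 35.95 FPKM) and the stromal and epithelial sum mainly EPCAM (17.3 and 8.77). Of the 3 expressed T cell markers, CD3D made up most of the sum and was lower in the USP6 library (27.8 and 22.6). CD3E (0.890 and 4.34) and CD2 (0.156 and 3.10) were higher. ALAS2, PF4 and PPBP, and COL1A2, DCN and KRT18 were at 0 in both libraries. The part of these shifts in the results below was not tested, and in bulk RNA fewer cells of a kind and less RNA per cell cannot be told apart.

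The HECT ligases ITCH and WWP1 and the RING ligase SIAH2 were lower in the USP6 library. The other ligases did not reach the limit set here. Expression was set at 1 FPKM or more in whichever library was higher. A gene was counted as higher or lower when log2((USP6 + 1)/(pccl + 1)) of the FPKM values reached 0.58, which is 1.5-fold, in either direction. Of the 10 genes, 8 were expressed. Of these 8, 3 were lower and 0 higher, against 24.5% lower, 27.9% higher and so 52.4% in either direction among all 10153 expressed genes. The 3 lower genes are a share of 37.5% of a small list, and with so few genes this is a description. The median over the 8 was -0.27, against 0.06 over all expressed genes. ITCH and SMURF1 were expressed by this rule through the pccl library alone, and CBLB and NEDD4L lay under 1 FPKM in both. Folds below are ratios of FPKM without the added 1, with a 95% interval from the counts that covers counting error only and no difference between cultures. PCR copies are not independent molecules, so the intervals may be too narrow even for that. The interval excluded 1 for 7 of the 10 genes, all of them lower in the USP6 library (SMURF2 and NEDD4L are above 0 once centred on GC content, described below), while 80.6% of all expressed genes had such an interval (38.5% lower and 42.1% higher). Over the 8 expressed ligases it excluded 1 for 6.

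**Figure D1:**
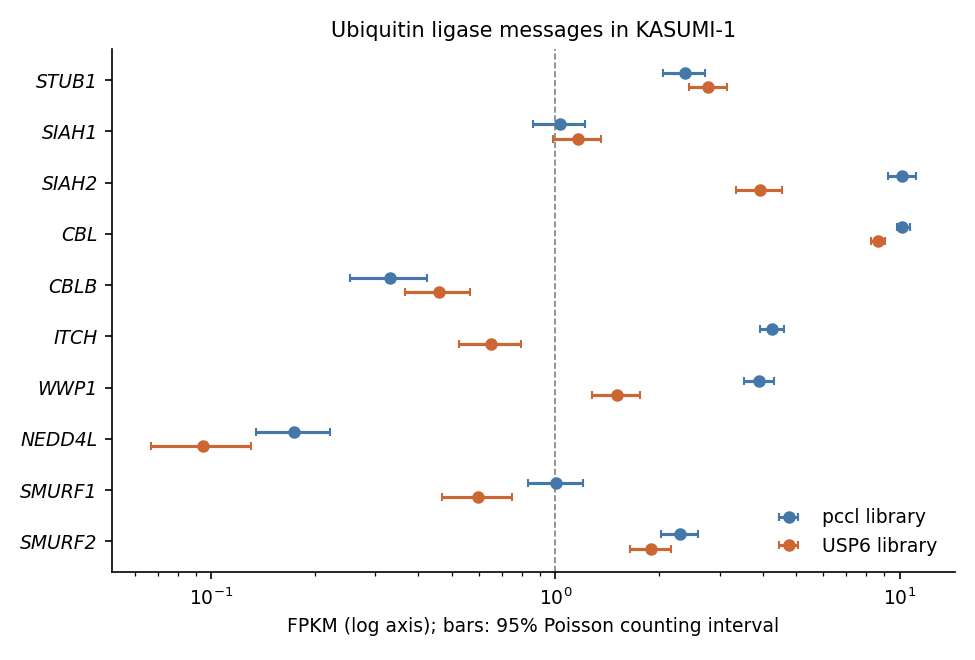
FPKM of the 10 ligase genes on a log axis in the pccl library (blue) and the USP6 library (orange), with 95% Poisson counting intervals; the dashed line marks 1 FPKM. ITCH, WWP1 and SIAH2 have the widest gaps between libraries, with the USP6 point on the left, while the intervals of STUB1, SIAH1, CBLB and SMURF2 overlap.

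Among the HECT ligases of the 10, ITCH differed most. ITCH, which marks JUNB, NOTCH and T cell signalling proteins, had 615 counts (4.27 FPKM) under pccl and 95 counts (0.648 FPKM) under USP6. That is 6.59-fold lower (5.30 to 8.26). Its level lay above that of 63.5% of expressed genes under pccl and of 7.35% under USP6, and 2.87% of expressed genes had a ratio lower than its log2 value of -1.68. ITCH (ENSG00000078747) is listed on chromosome 20 from 34363235 to 34511393. No gene that overlaps it had more than 2 counts in either library, and its listed pseudogene copy had 0. WWP1 (ENSG00000123124, chromosome 8 from 86342738 to 86478420), a close relative of ITCH that has been linked to KLF and RUNX proteins, had 398 counts (3.91 FPKM) and 156 counts (1.51 FPKM). It was 2.60-fold lower (2.15 to 3.14). WWP1 shares 247 exonic bases with RMDN1 on the opposite strand, which went the other way, from 344 to 569 counts.

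The SMURF genes, whose proteins target SMAD and RUNX proteins, were both lower by less, SMURF2 only without GC centring. SMURF2 (ENSG00000108854, chromosome 17 from 64542295 to 64662068) had 262 counts (2.30 FPKM) under pccl and 219 (1.89 FPKM) under USP6, a 1.22-fold difference (1.01 to 1.46). SMURF2 shares 167 exonic bases with CEP95 on the other strand, which had 732 and 1117 counts, and a SMURF2 pseudogene, AC138207.8, had 14 and 8. SMURF1 (ENSG00000198742, chromosome 7 from 99027438 to 99144100) had 124 counts (1.003 FPKM) and 75 counts (0.596 FPKM), 1.68-fold lower (1.25 to 2.27), with a log2 ratio of -0.33 once 1 is added to such low values. NEDD4L, a regulator of sodium channels and of SMAD proteins, was barely present. NEDD4L (ENSG00000049759, chromosome 18 from 58044367 to 58401540) had 67 counts (0.174 FPKM) and 37 counts (0.0945 FPKM), 1.84-fold lower (1.22 to 2.83).

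Within the NEDD4 family, messages of all 9 genes together went from 14.4 to 6.40 summed FPKM, and the make-up changed with it. ITCH made up 29.7% of the family sum under pccl and 10.1% in the USP6 library. WWP1 went from 27.2% to 23.5%. SMURF2 had 16.0% under pccl and 29.5% under USP6, where the counting intervals of its level and that of WWP1 overlapped. The founding gene NEDD4 had 2.16 and 1.002 FPKM, 2.15-fold lower (1.81 to 2.55) and past the limit, with shares of 14.99% and 15.7%. After GC centring (described below) it was at -0.30, and it did not reach the limit with a pseudocount of 5 or at 2-fold. WWP2, which had 0.559 and 0.566 FPKM, was near level, HECW2 had 2 and 19 counts, and HECW1 had 0 in both libraries. Such shares depend on the gene lengths but not on how the libraries are scaled to each other.

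**Figure D2:**
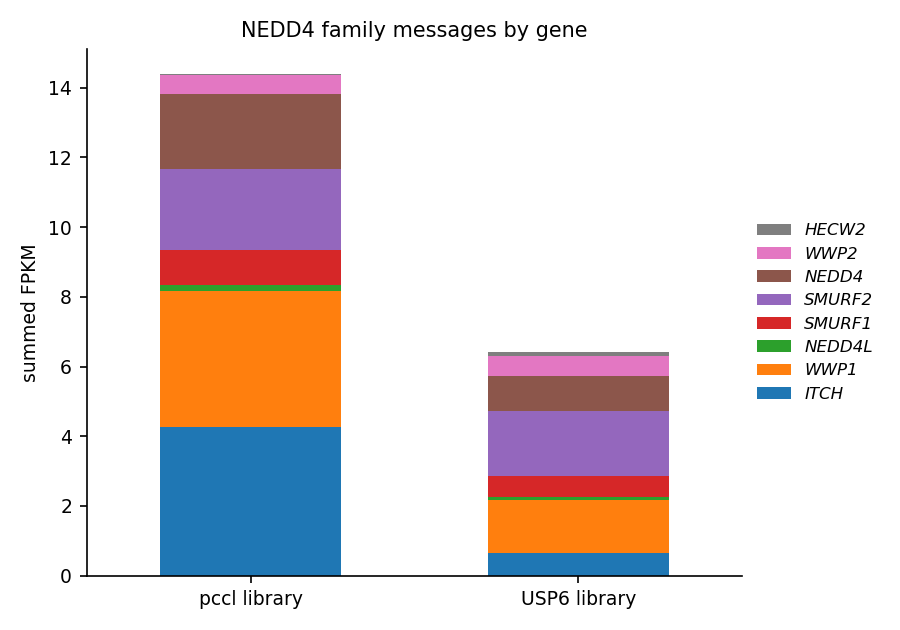
Summed FPKM of the NEDD4-family genes with a count, stacked by gene, in the pccl and USP6 libraries. The stack falls from 14.4 to 6.40 FPKM, with most of the lost height in ITCH and WWP1, and SMURF2 becomes the largest block.

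The windows before the starts of ITCH and SMURF2 are shown because their transcripts have nearly the same GC content while ITCH was 6.59-fold and SMURF2 1.22-fold lower. They come from RefSeq (GRCh38.p14), 5′ to 3′ on the gene's strand, cut where a GENCODE 29 exon begins: 212 bases for ITCH (chr20:34363023-34363234, plus strand) and 250 for SMURF2 (chr17:64662308-64662557, minus strand). Capitals mark GGGCGG (the GC box of SP and KLF factors), TGTGGT or TGCGGT (the RUNX core), CCGGAA (the ETS core) and CCAAT, on either strand.
ITCH: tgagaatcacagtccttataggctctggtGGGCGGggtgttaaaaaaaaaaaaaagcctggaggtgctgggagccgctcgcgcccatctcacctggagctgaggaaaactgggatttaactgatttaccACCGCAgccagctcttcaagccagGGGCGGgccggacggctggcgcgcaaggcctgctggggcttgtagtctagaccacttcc
SMURF2: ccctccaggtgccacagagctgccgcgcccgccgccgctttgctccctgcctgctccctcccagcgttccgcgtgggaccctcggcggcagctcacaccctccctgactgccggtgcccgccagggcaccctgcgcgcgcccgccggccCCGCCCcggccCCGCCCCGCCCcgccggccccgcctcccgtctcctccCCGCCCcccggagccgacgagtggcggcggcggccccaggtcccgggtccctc
The ITCH window holds 57.5% G and C, with the GC box at 2 places and 1 RUNX core, and the SMURF2 window holds 82.0%, with the GC box at 4 places, some of them overlapping. Of the 10 ligases, 7 had an entry in the table, and in the full 250 bases 6 of the 7 held GGGCGG against 42.6% of 35116 promoters of coding and non-coding genes, and 3 of the 7 a RUNX core against 16.3%. CCGGAA was in 0 of the 7, against 14.5%, and CCAAT in 1 of the 7, against 32.0%. These full windows were not cut at exons. They lay wholly in GENCODE 29 exons of the gene itself for SIAH2 and NEDD4L, and for CBLB 149 of the 250 bases did. The RUNX cores lay in the windows of SIAH1, ITCH and SMURF1. These matches describe letters, not binding.

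The SIAH pair, RING ligases that with the E2 enzyme UBE2L6 have been linked to the degradation of leukaemia fusion proteins, split. SIAH2 (ENSG00000181788, chromosome 3 from 150741127 to 150763477) had 426 counts (10.2 FPKM) under pccl and 167 (3.93 FPKM) under USP6, 2.59-fold lower (2.16 to 3.12). SIAH1 (ENSG00000196470, chromosome 16 from 48356364 to 48448402) had 135 counts (1.03 FPKM) and 155 counts (1.16 FPKM), a ratio of 1.13 (0.890 to 1.43), so a difference was not detectable at this depth. SIAH1 shares 1793 exonic bases with LONP2 on the other strand, which had 260 and 249 counts, whereas SIAH2-AS1 had 0. SIAH1 thus made up 9.15% of the SIAH1 and SIAH2 FPKM in the pccl library (counting interval 7.61 to 10.9) and 22.8% in the USP6 library (19.1 to 27.0). SIAH2 remained the more abundant of the pair per length in both libraries.

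CBL, the ligase that ends signalling by KIT and other receptor kinases, stood at the top of the 10 with SIAH2 under pccl and alone under USP6, and differed little. CBL (ENSG00000110395, chromosome 11 from 119206276 to 119308149) had 1954 counts (10.2 FPKM) under pccl and 1679 (8.66 FPKM) under USP6, 1.18-fold lower (1.11 to 1.26). This is the best counted of the 10 genes, and the interval keeps its difference below 1.5-fold as far as counting error goes. CBLB, known as a brake on lymphocyte activation, was low in both, with 61 counts (0.330 FPKM) and 86 counts (0.458 FPKM), a ratio of 1.39 (0.987 to 1.96). CBLB (ENSG00000114423) is listed on chromosome 3 from 105655461 to 105869552, with no overlapping gene. CBL made up 96.9% of the pair's FPKM (96.01 to 97.6) and 94.98% (93.8 to 95.96).

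STUB1, the chaperone-bound U-box ligase also called CHIP, was close to level as deposited, and lower after GC centring (below). It had 209 counts (2.38 FPKM) under pccl and 249 counts (2.78 FPKM) under USP6, a ratio of 1.17 (0.971 to 1.41). STUB1 (ENSG00000103266, chromosome 16 from 680224 to 682870) shares 983 exonic bases with JMJD8 on the opposite strand. JMJD8 had more counts, 1018 and 783, and went the other way. Without knowledge of strand in the counting, reads in the shared part cannot be told apart. The same holds for the other opposite-strand pairs above, and its effect on the ratios was not tested.

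Ordered by FPKM, the pccl library had CBL and SIAH2 at the top, then ITCH and WWP1, then STUB1 and SMURF2, then SIAH1 and SMURF1, with CBLB and NEDD4L last. Within each of the first 4 pairs the counting intervals overlapped, and between the pairs they did not. In the USP6 library the order was CBL, SIAH2, STUB1, SMURF2, WWP1, SIAH1, ITCH, SMURF1, CBLB and NEDD4L. There the neighbours SMURF2 and WWP1, WWP1 and SIAH1, ITCH and SMURF1, and SMURF1 and CBLB overlapped. ITCH dropped from rank 3 to rank 7. The order leans on the lengths behind the deposited FPKM, which were not the merged exons: for STUB1 the FPKM imply 7148 bases, more than the 2647 bases of its locus, against 2316 bases of merged exons in GENCODE 29. With merged exon lengths, chosen after the data were seen, STUB1 stood at 7.33 and 8.59 FPKM, rank 4 under pccl and rank 2 under USP6, there above SIAH2 with 5.10 FPKM. CBLB and NEDD4L stayed under 1 FPKM, and the ratios between libraries without the added 1 do not depend on length.

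In these libraries ratios moved with the GC content of transcripts, with a trend that fell to about 39% GC and rose from there, so each ligase was also set beside genes of like GC. SIAH2, at 56.5% GC, had a log2 ratio of -1.18 where the median of 588 expressed genes within 1 percentage point of its GC was 0.32, and 3.91% of those genes were lower still. ITCH, at 39.1%, had -1.68 against a median of -0.39 over 799 genes, of which 4.01% were lower. WWP1, at 38.8%, had -0.97 against -0.40 over 754 genes, of which 21.4% were lower. Centred on the trend, SIAH2 was at -1.51, ITCH at -1.31 and WWP1 at -0.61, all past the limit. STUB1, the most GC-rich at 65.0%, turned from 0.16 to -0.60, just past it, since genes of its GC had a median of 0.67. SMURF2 turned from -0.19 to 0.17 and NEDD4L from -0.10 to 0.15, while SIAH1 and CBLB stood at 0.44 and 0.43 and CBL at -0.04. After centring, 4 of the 8 expressed ligases were lower and 0 higher, against 22.5% lower and 22.1% higher over all genes centred in the same way.

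**Figure D3:**
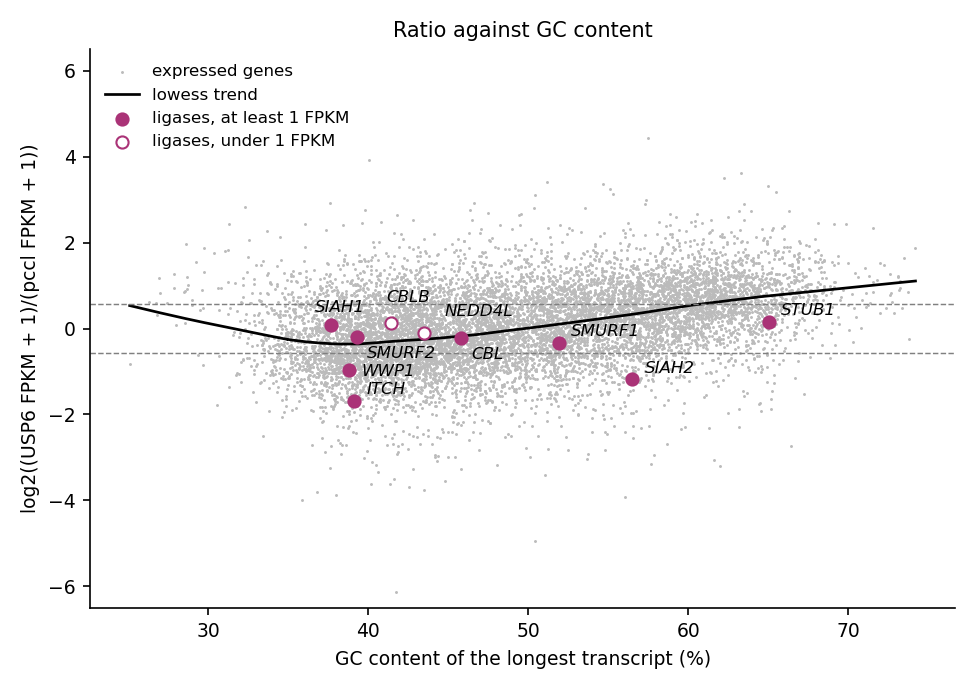
Log2 ratio of USP6 to pccl against GC content of the longest transcript for all expressed genes (grey), with the lowess trend (black) and the ligases (purple, open where under 1 FPKM); dashed lines mark 0.58 and -0.58. SIAH2 and ITCH lie far below the trend, WWP1 nearer to it, and STUB1 is above 0 but below the trend at its GC content.

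**Figure D4:**
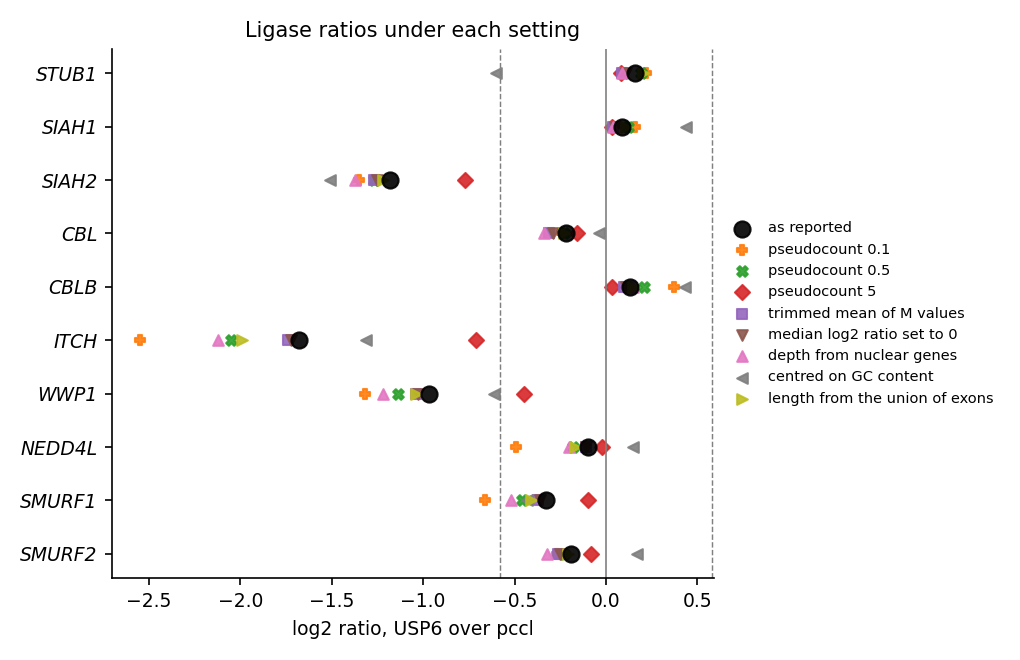
Log2 ratio of each ligase under the reported setting (black) and 8 others (coloured); dashed lines mark 0.58 and -0.58. ITCH and SIAH2 stay past -0.58 in every setting drawn, WWP1 in all but the pseudocount of 5, and the GC-centred points of STUB1, SMURF2 and NEDD4L cross 0.

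Genes that work with these ligases were lower more often than higher. Over the 148 distinct genes on 11 lists outside the 10 ligases, 105 were expressed, of which 44 were lower and 13 higher, with a median log2 ratio of -0.43 against 0.06 over all expressed genes. Over all expressed genes 24.5% were lower and 27.9% higher, and each list below is to be read beside these shares. After GC centring these shares were 22.5% and 22.1%. Several listed genes (HSP90AB1, HSPA8, UBE2E1, KIT, JUN, KLF2 and RUNX1 among them) were already known to be lower in these libraries when the lists were drawn up, so the direction is no independent evidence. UBE2D1, UBE2D2, UBE2D3 and UBE2L6 are on more than 1 list.

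Of the E2 enzymes that feed the ligases, 8 of 13 expressed genes were lower and 0 higher (median -0.81). All 4 UBE2D genes, general partners of RING and HECT ligases, were lower. UBE2D3 had 9.11 FPKM under pccl and 2.24 under USP6, 4.07-fold lower (3.75 to 4.42). UBE2D4 was 3.87-fold lower (3.14 to 4.81), UBE2D1 3.74-fold (2.70 to 5.29) and UBE2D2 2.12-fold (1.82 to 2.48). All 3 UBE2E genes were lower as well, UBE2E2 by 4.43-fold (3.52 to 5.64), though after GC centring UBE2E3 fell just short of the limit and 7 of the 13 were lower. UBE2L6, the interferon-induced partner of SIAH1, had 101 and 38 counts, 2.70-fold lower (1.84 to 4.04). UBE2L3, an E2 that works with HECT ligases, did not reach the limit, with 42.9 and 61.9 FPKM, and UBE2N and UBE2V2, which together build K63-linked chains, had 8.52 and 8.32 FPKM and 11.2 and 11.2 FPKM.

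Partners of STUB1 were lower too: 8 of 16 expressed chaperones and co-chaperones, with 0 higher and a median of -0.63. STIP1, which links HSP70 and HSP90 through the same tails that STUB1 binds, had 20.6 and 8.06 FPKM, 2.56-fold lower (2.34 to 2.80). BAG2, an inhibitor of STUB1, was 1.99-fold lower (1.70 to 2.33), BAG1 2.001-fold (1.77 to 2.26) and ST13 1.97-fold (1.81 to 2.14). HSPBP1, also an inhibitor of STUB1, had 3.81 and 5.49 FPKM and did not reach the limit, and HSPA4 had 31.6 FPKM in both. After GC centring 11 of the 16 were lower, BAG2 (-0.46) not among them.

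Of 12 expressed genes listed as SIAH partners, substrates or their relatives, 7 were lower and 1 was higher (median -0.76). Most of the 7 were the E2 enzymes UBE2D1, UBE2D2, UBE2D3 and UBE2L6, already counted as lower above. The other lower genes were CACYBP, TBL1X and EGLN1. CACYBP, the adaptor that joins SIAH1 to SKP1, had 15.3 and 4.31 FPKM, 3.56-fold lower (3.21 to 3.94). TBL1X, a SIAH-bound scaffold for beta-catenin degradation and a corepressor subunit, was 2.54-fold lower (2.20 to 2.93), and the oxygen sensor EGLN1 1.75-fold (1.57 to 1.96). TRAF2 was the higher one, with 6.37 and 14.4 FPKM (2.26-fold, 1.99 to 2.57). After GC centring TRAF2 (0.47) and EGLN1 (-0.48) did not reach the limit.

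Of 9 expressed CBL relatives and partners, 6 were lower and 1 was higher (median -0.996). SH3KBP1, also called CIN85, which couples CBL to receptor endocytosis, had 13.3 and 4.26 FPKM, 3.11-fold lower (2.82 to 3.44), and its relative CD2AP was 2.35-fold lower (2.02 to 2.74). UBASH3B, a phosphatase that binds CBL, was 2.31-fold lower (2.06 to 2.60) and CRK 6.56-fold (4.35 to 10.2). SLA2, an adaptor that brings CBL to antigen receptors, had 208 and 8 counts. GRB2, which joins CBL to activated receptors, was the exception at 3.05 and 12.0 FPKM, which is 3.94-fold higher (3.44 to 4.53). Of the receptors and kinases that CBL proteins act on, listed with the exchange factor VAV1, 2 of 8 expressed were lower (median -0.05). FLT3 and VAV1 were the 2 higher ones. These counts are close to the 24.5% lower and 27.9% higher over all expressed genes. KIT had 99.3 and 39.99 FPKM and FLT3 1.25 and 3.30 FPKM, 2.64-fold higher (2.02 to 3.48).

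The adaptors of NEDD4-family ligases were higher more often than lower. Of 6 expressed, 3 were higher and 1 lower (median 0.62). The higher ones were arrestin-domain genes, whose proteins bring the ligases to membrane cargo: ARRDC1 had 5.51 and 17.8 FPKM, 3.23-fold higher (2.94 to 3.55), ARRDC2 was 2.99-fold higher (2.72 to 3.28) and ARRDC3 4.47-fold (3.19 to 6.40). NDFIP1, an activator of ITCH, had 7.28 and 3.77 FPKM, 1.93-fold lower (1.72 to 2.18), but did not reach the limit after GC centring (-0.51), with a pseudocount of 5 or at 2-fold. Among substrates of HECT ligases, listed together with CBFB, 8 of 14 expressed were lower and 0 higher (median -0.62). After GC centring 5 were lower and 1 higher, with CBFB at -0.45. The RUNX partner CBFB was 1.87-fold lower (1.69 to 2.07), RUNX3 3.56-fold (2.60 to 4.94), the SMURF1 substrate RHOA 1.73-fold (1.69 to 1.78) and the ITCH substrate JUNB 1.62-fold (1.25 to 2.11), whereas SMAD5 had 1.99 and 1.86 FPKM.

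HECT ligases outside the NEDD4 family mostly did not reach the limit. Of 11 expressed, 2 were lower and 1 higher (median 0.09), against 24.5% lower and 27.9% higher over all expressed genes. UBE3A, the ligase also called E6AP, had 678 counts under pccl and 30 under USP6, 23.0-fold lower (16.0 to 34.3). HUWE1, which targets the survival protein MCL1, was 1.79-fold lower (1.63 to 1.96), and HECTD3 had 5.31 and 11.0 FPKM, 2.08-fold higher (1.84 to 2.34), though at 0.48 after GC centring it did not reach the limit.

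**Figure D5:**
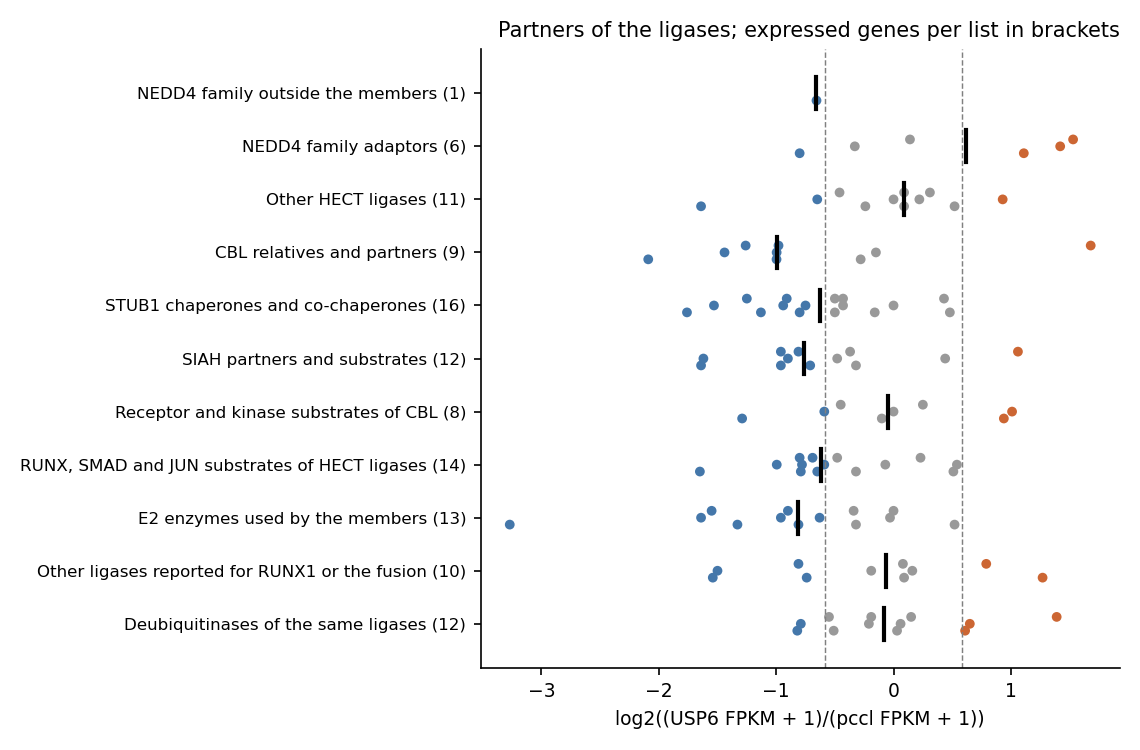
Log2 ratio of every expressed gene on the 11 lists (points; blue at or below -0.58, orange at or above 0.58, grey between), with the list's median as a black bar and the number of expressed genes in brackets. The E2, SIAH, CBL partner and STUB1 chaperone lists lean left, the adaptors lean right, and the other HECT ligases centre near 0.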

How the data were processed

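RNA of KASUMI-1 cells was sequenced in 1 library per group, pccl and USP6, per the labels. Tools in the submitters' processing notes are StringTie 1.3.3b, HISAT2 2.0.4 and edgeR, with no roles stated, and the genome build is not given in the sources used here. Of 50111 identifiers found in GENCODE 29 (GRCh38), 94.9% had the identical locus. The deposited counts are whole numbers per gene. The FPKM deposited by the authors equal count over a gene length and the column total, with 1 length per gene in all 16030 genes counted in both libraries, within 0.1%. That length exceeded the locus by over 1% in 7.49% of genes with a length, so levels between genes are approximate.

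Genes sharing a symbol were summed. With 0 residual degrees of freedom no test was run. Ratios used log2 of FPKM plus 1, and folds an exact conditional binomial (Clopper-Pearson) 95% interval on counts. Shares of a pair's FPKM carry the binomial interval of the counts through the lengths. GC content is that of the longest GENCODE 29 transcript, with a lowess trend of span 0.3. The ligases, lists and limits were chosen with earlier results of these data known. Named from the lists were genes past the limit and up to 4 of smallest ratio; other genes given beside these (HSPBP1, UBE2L3 and NEDD4-family genes among them) were chosen after their values were seen. Some genes of the lists are not reported here by name. The alternatives were other pseudocounts, filters, scalings (trimmed mean of M values in edgeR 4.0.16, median, nuclear depth), a 2-fold limit, GC centring and merged exon lengths. The calls and the ratio intervals were tested on simulated counts that held counting error only. The changes set there were larger than the limit and in genes at 5 FPKM or more, a level most of the ligases did not reach. GC centring, pair shares and promoter matches were not simulated. The work was done in Python 3.11.15 (statsmodels 0.14.6, SciPy 1.17.1, pandas 2.3.3, NumPy 2.4.6, matplotlib 3.10.9) and R 4.3.3.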

Additional observations from a re-analysis of the deposited data

How the results depend on the processing

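No paired analysis was possible because each group holds 1 library. The count of lower ligases, 3 as reported, was 1 with a filter of 5 FPKM, which leaves 2 of the 10 genes, 2 with a pseudocount of 5 or a 2-fold limit and 4 with a pseudocount of 0.1 or after GC centring, and 0 ligases were higher in any of the 11 alternatives. Over all genes, 2831 higher and 2489 lower became 1105 and 951 with a pseudocount of 5, 1366 and 1191 with the 5 FPKM filter, and 1396 and 1156 at 2-fold. The balance turned to more lower than higher with the trimmed mean (2537 higher and 2767 lower), the median (2598 and 2701), nuclear depth (3348 and 3645), GC centring (2231 and 2271) and protein-coding genes alone (2044 and 2084). On the partner lists, 13 higher and 44 lower became 8 and 17 at 2-fold, and the lower count was 19 with a pseudocount of 5 and 24 with the 5 FPKM filter. SIAH1's share of the SIAH pair, 9.15% and 22.8%, was 24.1% and 48.1% by counts not divided by length, and 11.0% in the pccl library with merged exon lengths. Of 22 list counts, 15 moved by over 1.5 times at 2-fold, 12 with a pseudocount of 5, 10 with the 5 FPKM filter, 7 after GC centring, 4 each with nuclear depth, merged exon lengths and a pseudocount of 0.1, 3 with a pseudocount of 0.5 and 0 with the trimmed mean, the median or no filter. The trimmed mean shifted log2 ratios by -0.10 and nuclear depth by -0.12. With 1 library per group, differences between cultures cannot be told from those between conditions, and CBLB, NEDD4L, SMURF1 and, in the USP6 library, ITCH rest on at most 124 counts each.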

Other observations

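Of 12 expressed deubiquitinases that act on these ligases or their substrates, 3 were higher and 2 lower (median log2 ratio -0.08), against 27.9% higher and 24.5% lower of all expressed genes, so the share called was no larger than over all genes. USP7, which acts on MDM2 and p53, had 1.80 FPKM under pccl and 6.31 under USP6, 3.51-fold higher (3.07 to 4.03). CYLD, which removes K63-linked chains, was 2.32-fold higher (1.94 to 2.79) and USP19 1.91-fold (1.62 to 2.25). USP15, which acts on SMAD proteins and their receptors, had 2.25 and 0.836 FPKM, 2.69-fold lower (2.33 to 3.11), and USP13 was 2.13-fold lower (1.81 to 2.52). After GC centring USP15 (-0.50), USP13 (-0.57) and USP19 (0.17) did not reach the limit.

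Other ligase genes reported for RUNX1 or the fusion were also divided, with 4 lower and 2 higher of 10 expressed (STUB1 and SIAH1 among the 10) and a median of -0.06. Over all expressed genes 24.5% were lower and 27.9% higher. Among the 4 lower was the E2 enzyme UBE2L6, already counted with the E2 enzymes above. The activators of the anaphase-promoting complex were the higher ones, CDC20 by 1.78-fold (1.61 to 1.97) and FZR1 by 2.98-fold (2.56 to 3.48), though after GC centring neither reached the limit (log2 ratios of 0.38 and 0.55). FBXW7, the substrate receptor for MYC and NOTCH, had 263 and 75 counts, 3.57-fold lower (2.75 to 4.67) but at -0.56 after GC centring, short of the limit, and the DNA methylation reader UHRF1 was 12.3-fold lower (8.25 to 19.2). CUL1 had 11.3 and 12.0 FPKM.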
